A study of Mus musculus with 66 samples.

Results

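Activins are secreted dimers of inhibin β subunits. They bind a type II receptor, ACVR2A or ACVR2B, which recruits the type I receptor ACVR1B, and the SMAD2 and SMAD3 factors then carry the signal to the nucleus. The inhibin α subunit pairs with a β subunit to form inhibin, which opposes activin at the type II receptors, while follistatin and its relative FSTL3 bind activin outside the cell and keep it from its receptors. In neurons, the gene for the βA subunit, Inhba, is known as an activity-induced gene.

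The 8 activin and follistatin genes described here were selected by symbol from the 24138 genes of an expression table: the ligand subunits Inhba (βA), Inhbb (βB) and Inha (α), the antagonists Fst (follistatin) and Fstl3, and the receptors Acvr1b, Acvr2a and Acvr2b. Measured values entered this choice, since Inhba and Fst were known from the same libraries to differ between genotypes. The levels of the 8 genes in both genotypes are therefore given as a description, with no test.

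The libraries came from punches of ventral striatum, which includes the nucleus accumbens (NAcc). The mice were males aged 3 to 5 months on a C57BL/6 background (C57BL/6J in the paper). Wild type (WT) mice were compared with iMSN-D2RKO mice, in which both copies of the dopamine D2 receptor gene are floxed (D2R flox/flox) and Cre is driven by the D1 receptor promoter (D1R-CRE+/-), active in embryonic precursors of the medium spiny neurons (MSNs), so that the receptor is lost from the indirect pathway MSNs (iMSNs) and kept in other cells. Whether the WT mice carried floxed alleles is not given in the sources used here. Mice received saline or cocaine (20 mg/kg, intraperitoneal) at zeitgeber time (ZT) 3 and were killed at ZT7, ZT11, ZT15, ZT19 or ZT23, and mice killed at ZT3 opened both the saline and the cocaine series. This gave 11 conditions with 3 libraries in each genotype, 22 groups and 66 libraries in all. Whether each library came from 1 mouse is not given in the sources used here, so p-values measure the spread between libraries.

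Levels are in FPKM, fragments per kilobase of transcript scaled to the mapped reads of the library, which allows genes to be compared per length. FPKM summed to between 364078 and 690048 per library, and between 12496 and 13028 genes reached 1 FPKM. The number of reads behind each value is unknown. Medians of the non-zero values of 1439 rarely detected genes put the depth of the libraries at an estimated 0.346 to 1.75 times that of the median library. These values can stand for more than 1 read, so the estimate is rough. All levels are per library of mixed cells, so fewer cells of a type and less RNA per cell cannot be told apart.

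Some libraries stood apart before any comparison. On the main axis of the differences within groups, which held 43.6% of their variance, 13 libraries (6 WT and 7 iMSN-D2RKO) scored between 44.3 and 56.1, and the other 53 between -35.9 and 15.1. The 13 were called set apart. Separately, replicate 1 of the iMSN-D2RKO saline group at ZT7 had the highest summed FPKM of the 66 libraries, 690048 against at most 465297 in the others. It also held the highest Penk, the enkephalin precursor of iMSNs, at 9282 FPKM against at most 3399, the highest Sst at 3060 against at most 1957, the highest Drd2 at 375 against at most 350.4, and the lowest Acvr1b, Acvr2a and Inhbb. Its estimated depth was 0.371 of the median. The main results are given with and without these libraries where they differ.

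Drd2, the deleted gene, gave no check of the genotype labels. Its level ran from 99.1 through a median of 129 to 304 FPKM in WT libraries and from 78.0 through 112 to 375 FPKM in iMSN-D2RKO libraries, and the ranges overlapped. The highest iMSN-D2RKO value is from the library just described. The value counts the whole gene, Cre removes only a part of it, and cells other than iMSNs keep it, so a gene-level value does not read the deletion. The genotypes are those of the labels.

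In GRCm38 (mm10), Inhba lies on the plus strand at chr13:16011851-16031621 and Fst on the minus strand of the same chromosome at chr13:114452290-114458951. Antisense genes are annotated over both (Gm48444 and the pseudogene B230303A05Rik over Inhba, Gm47040 over Fst), and since the use of strand in counting is not given in the sources used here, their reads cannot be told apart from those of the named genes. Inhbb lies at chr1:119415465-119422248 and Inha at chr1:75507077-75510366. Fstl3 lies at chr10:79777272-79782630, where the opposite strand carries Prss57. The receptor genes Acvr1b (chr15:101174067-101213684), Acvr2a (chr2:48814109-48903269, overlapped by Orc4) and Acvr2b (chr9:119402118-119434995, overlapped by Gm47320) are on separate chromosomes.

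The window of 250 bases before the start of Inhba is shown because Inhba had the largest mean difference between genotypes among the 8 genes. It lies at chr13:16011601-16011850 on the plus strand (RefSeq sequence, GRCm38.p6), and the capitals mark the D-box, the element read by PAR bZIP clock output factors.
Inhba promoter: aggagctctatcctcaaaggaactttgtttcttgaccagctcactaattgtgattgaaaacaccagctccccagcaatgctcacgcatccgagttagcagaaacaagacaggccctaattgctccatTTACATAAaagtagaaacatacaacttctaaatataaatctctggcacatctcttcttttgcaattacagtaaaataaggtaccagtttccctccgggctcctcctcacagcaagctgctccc

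The D-box was searched as TTATGTAA on both strands, and its match in Inhba, TTACATAA, is the reverse complement, beginning 123 bases before the start. Of 32851 promoter windows of this length, 0.819% hold such a match. The cAMP response element TGACGTCA (1.55% of windows), its shorter form TGACG (17.8%, which includes every match of the full element) and the AP-1 site TGANTCA (6.75%) had no match in the windows of the 7 genes matched by symbol, all but Fst. The E-box CACGTG (6.02%) matched in Acvr1b, and CAGACA, called the CAGA box here (17.1%), in Fstl3. A match describes letters only, and the GC content of the Inhba window was 43.2% against a median of 52.4%.

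The type I receptor was the most abundant of the 8 genes. The mean over all libraries was 35.5 FPKM for Acvr1b, 18.2 for Inha, 10.5 for Acvr2a, 5.97 for Inhba, 3.13 for Acvr2b, 2.70 for Fst, 1.65 for Inhbb and 1.32 for Fstl3. By this mean Acvr1b stood at percentile 89.7 of all genes and Fstl3 at percentile 48.2. In WT libraries, Inhba and Acvr2b differed by less than the larger of their SDs, as did Fst, Inhbb and Fstl3 from neighbour to neighbour, while Acvr1b, Inha and Acvr2a each stood above the next gene by more than that. In iMSN-D2RKO libraries, the order of Fst and Acvr2b was the other way round, and the gaps between Acvr2a and Inhba, Fst and Acvr2b, and Inhbb and Fstl3 were each less than the larger SD.

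The ligand subunit Inhba and the antagonist Fst were both higher in iMSN-D2RKO mice, by similar factors. Inhba ran from 0.819 through a median of 3.76 to 7.62 FPKM in WT libraries and from 2.69 through 8.47 to 12.6 FPKM in iMSN-D2RKO libraries. The mean was 3.93 ± 1.46 FPKM (SD, n = 33) in WT and 8.01 ± 2.98 FPKM (SD, n = 33) in iMSN-D2RKO mice, a ratio of 2.04. Of the 33 iMSN-D2RKO libraries, 17 lay above every WT library, and the groups overlapped.

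Fst ran from 1.21 through a median of 1.73 to 2.89 FPKM in WT and from 1.39 through 3.42 to 5.84 FPKM in iMSN-D2RKO libraries. The mean was 1.82 ± 0.385 FPKM (SD, n = 33) in WT and 3.59 ± 1.09 FPKM (SD, n = 33) in iMSN-D2RKO mice, a ratio of 1.97. Of the iMSN-D2RKO libraries, 25 lay above every WT library. From the other side, 4 of the 33 WT libraries lay below every iMSN-D2RKO library for Fst and 5 for Inhba, so neither gene was separated over all conditions. As a description, in the limma fit the mean difference on the log2(FPKM + 1) scale was 0.85 (SE 0.11) for Inhba and 0.68 (SE 0.06) for Fst, ranks 5 and 13 from the top of 14643 genes, where the median of all genes was 0.01.

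**Figure D1:**
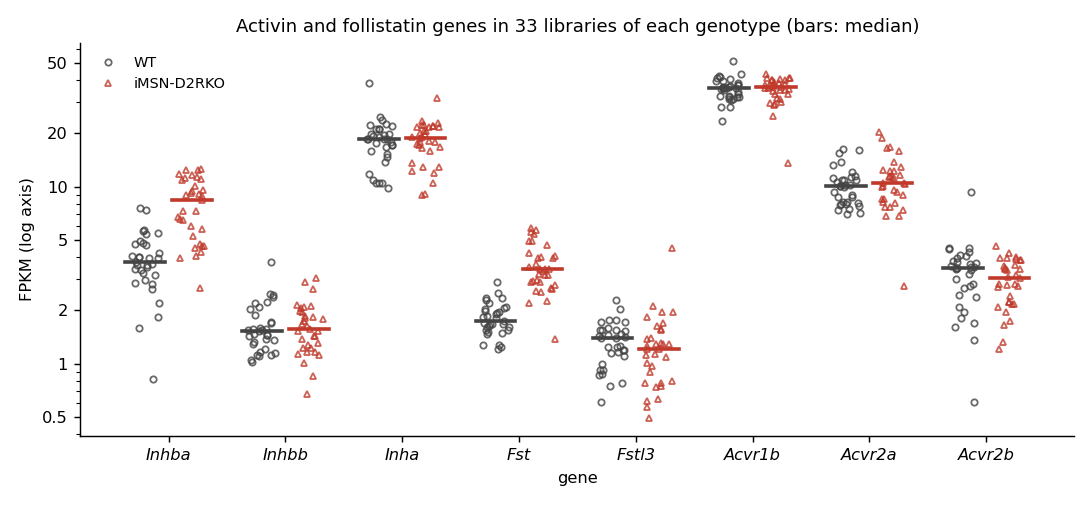
Level of the 8 genes in FPKM (log axis) in 33 WT libraries (circles) and 33 iMSN-D2RKO libraries (triangles), with the median of each genotype as a bar. The medians of Inhba (3.76 and 8.47 FPKM) and Fst (1.73 and 3.42 FPKM) lie apart, and those of the other 6 genes lie within the spread of the libraries.

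Without the 13 set-apart libraries, the ratio of means was 2.04 for Inhba and 1.91 for Fst, and 12 of 26 iMSN-D2RKO libraries lay above every WT library for Inhba and 23 of 26 for Fst. Without replicate 1 of the iMSN-D2RKO saline group at ZT7 it was 2.08 for Inhba and 2.0 for Fst. The ratio of Inhba to Fst within a library had a median of 2.26 in WT and 2.07 in iMSN-D2RKO mice, with means of 2.20 ± 0.826 and 2.25 ± 0.638 (SD, n = 33 each).

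The higher level held in each of the 11 conditions by the mean, for both genes. For Inhba all iMSN-D2RKO libraries lay above all WT libraries in 5 conditions and for Fst in 9 (in 6 and 10 without the set-apart libraries, and in 6 and 9 without the iMSN-D2RKO library at ZT7 that stood apart). Fewer libraries make non-overlap easier, and without the set-apart libraries some groups at ZT19 hold a single library. The counts in brackets therefore have no matching share over all genes. With all libraries, of all 14643 genes tested, 0.656% were separated this way in at least 5 conditions and 0.0205% in at least 9. A higher iMSN-D2RKO mean in all 11 was found for 0.205%. The genotype contrast chose Inhba and Fst, so nothing is read from these shares. The 3 genes separated in at least 9 conditions were Fst, Snx31 and Anxa3, the last 2 named after their values were seen.

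At ZT3, the start of both series, Inhba was 4.66, 1.83 and 2.86 FPKM in the WT libraries and 4.72, 4.51 and 4.65 FPKM in the iMSN-D2RKO libraries. The genotypes overlapped here through 1 WT library, which lay above 2 of the iMSN-D2RKO libraries. Fst was 2.03, 1.51 and 1.93 FPKM in WT and 3.35, 2.55 and 2.78 FPKM in iMSN-D2RKO mice, with no overlap.

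In the saline series at ZT7, Inhba was 3.61, 1.59 and 2.83 FPKM in WT and 2.69, 7.32 and 12.6 FPKM in iMSN-D2RKO mice. The lowest of these iMSN-D2RKO values is from the library that stood apart, and without it the genotypes did not overlap at this time. Fst at ZT7 was 1.28, 1.47 and 1.24 FPKM in WT and 2.26, 3.44 and 4.22 FPKM in iMSN-D2RKO mice. The ratios of means at ZT7, 2.82 for Inhba and 2.48 for Fst, were the highest of the saline series. At ZT11, Inhba was 4.03, 2.99 and 2.20 FPKM in WT and 6.50, 3.97 and 4.65 FPKM in iMSN-D2RKO mice, a narrow overlap. Fst at ZT11 was 2.50, 2.34 and 1.56 FPKM in WT and 2.90, 3.17 and 2.95 FPKM in iMSN-D2RKO mice, the smallest gap of the saline series by the ratio of means, 1.41.

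The dark hours of the saline series held 2 times without overlap. At ZT15, Inhba was 5.49, 3.65 and 3.51 FPKM in WT and 8.47, 9.54 and 6.02 FPKM in iMSN-D2RKO mice. At ZT19, it was 4.00, 3.76 and 4.20 FPKM in WT and 12.5, 6.72 and 7.32 FPKM in iMSN-D2RKO mice. At neither time did the genotypes overlap. At ZT23, Inhba was 5.43, 4.75 and 3.94 FPKM in WT and 12.5, 4.25 and 9.04 FPKM in iMSN-D2RKO mice, where replicate 2 fell among the WT values. Fst was separated at all of these times, with ratios of means of 1.93 at ZT15, 1.96 at ZT19 and 1.97 at ZT23.

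After cocaine, the ratio of means of Inhba ran from 1.42 to 3.30. At ZT7, Inhba was 3.96, 7.62 and 3.24 FPKM in WT and 11.8, 5.26 and 9.25 FPKM in iMSN-D2RKO mice. At ZT11, it was 3.18, 4.82 and 3.60 FPKM in WT and 6.54, 4.08 and 5.81 FPKM in iMSN-D2RKO mice. Both times overlapped, and the ratio of means at ZT11, 1.42, was the lowest of the 11 conditions. At ZT15, Inhba was 4.06, 2.63 and 7.35 FPKM in WT and 10.1, 11.2 and 8.82 FPKM in iMSN-D2RKO mice. At ZT19, it was 3.40, 0.819 and 4.90 FPKM in WT and 9.41, 11.6 and 9.11 FPKM in iMSN-D2RKO mice, the highest ratio of the 11 conditions at 3.30. That rank depends on the libraries kept: without the iMSN-D2RKO library that stood apart, the highest ratio was 3.72, at ZT7 after saline, and without the set-apart libraries it was 12.3, at ZT19 after cocaine against 1 remaining WT library. At ZT23, it was 5.71, 3.41 and 5.62 FPKM in WT and 10.9, 11.1 and 11.3 FPKM in iMSN-D2RKO mice. In these dark hours every iMSN-D2RKO library exceeded every WT library.

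Fst after cocaine followed the same order at ZT11. There it was 2.10, 1.49 and 1.21 FPKM in WT and 2.65, 1.39 and 2.21 FPKM in iMSN-D2RKO mice, the lowest ratio of its 11 conditions at 1.30. At ZT15, Fst was 1.68, 1.73 and 1.63 FPKM in WT and 4.96, 3.95 and 5.84 FPKM in iMSN-D2RKO mice, its highest ratio at 2.93 (2.65 without the set-apart libraries). The genotypes overlapped at ZT11 and not at ZT15. At ZT19, Fst was 1.69, 1.62 and 2.89 FPKM in WT and 3.16, 3.67 and 2.58 FPKM in iMSN-D2RKO mice, an overlap made by 1 WT library. At ZT7 and ZT23 it was separated, with ratios of means of 2.27 and 2.69.

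**Figure D2:**
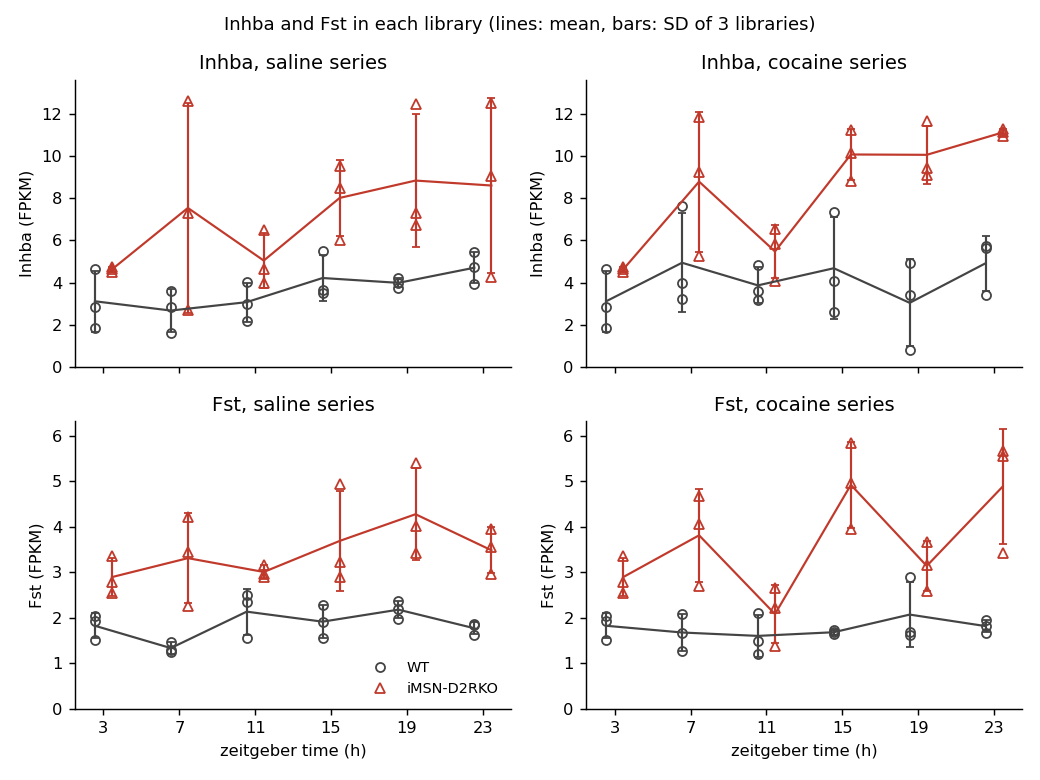
Inhba (upper panels) and Fst (lower panels) in FPKM against zeitgeber time in hours, in WT (circles) and iMSN-D2RKO mice (triangles), for the saline and cocaine series, which share the ZT3 libraries. Symbols are single libraries, lines join the means and bars are SDs of 3 libraries. The iMSN-D2RKO means lie above the WT means at every time, and the ratio of means is lowest at ZT11 after cocaine for both genes.

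Ordered by mean, the iMSN-D2RKO conditions ran from 11.1 ± 0.177 FPKM of Inhba (SD, n = 3) at ZT23 after cocaine down to 4.63 ± 0.108 FPKM at ZT3, and the WT conditions from 4.94 ± 2.35 FPKM at ZT7 after cocaine down to 2.68 ± 1.02 FPKM at ZT7 after saline. None of the 10 steps between neighbours in either order exceeded the larger SD of the neighbours. For Fst, 1 of the 10 steps did so in iMSN-D2RKO mice and 0 of 10 in WT mice.

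The other ligand subunits and the second antagonist did not follow Inhba and Fst. Inhbb ran from 1.02 through 1.53 to 3.75 FPKM in WT and from 0.678 through 1.57 to 3.04 FPKM in iMSN-D2RKO libraries. Inha ran from 9.82 through 18.6 to 38.8 FPKM in WT and from 8.95 through 18.9 to 31.9 FPKM in iMSN-D2RKO libraries. Fstl3 ran from 0.606 through 1.39 to 2.28 FPKM in WT and from 0.495 through 1.21 to 4.49 FPKM in iMSN-D2RKO libraries. The ranges overlapped nearly throughout, and the ratios of means were 0.998 for Inhbb, 0.999 for Inha and 0.975 for Fstl3. The highest Fstl3 value belongs to the iMSN-D2RKO library that stood apart, and without it that ratio was 0.900. Fstl3 was under 1 FPKM in some libraries, with 48 of 66 at or above it.

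The receptors that bind activin showed no shift of this size either. Acvr1b ran from 23.6 through 36.2 to 51.6 FPKM in WT and from 13.6 through 36.3 to 43.5 FPKM in iMSN-D2RKO libraries. Acvr2a ran from 7.01 through 10.1 to 16.4 FPKM in WT and from 2.76 through 10.5 to 20.3 FPKM in iMSN-D2RKO libraries. Acvr2b ran from 0.612 through 3.47 to 9.38 FPKM in WT and from 1.21 through 3.04 to 4.63 FPKM in iMSN-D2RKO libraries. The ratios of means were 0.987, 1.07 and 0.896. The ends of these ranges came from few libraries: the iMSN-D2RKO library that stood apart held the lowest Acvr1b and Acvr2a, and replicate 3 of the WT cocaine group at ZT15 held the highest Acvr1b, Acvr2b and Inha. That WT library had the lowest estimated depth, 0.346 of the median, and the lowest summed FPKM, 364078.

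Levels moved together within groups in ways that the genotype did not set. Over the 66 libraries, deviations from the group mean in Inha correlated with the library score at r = -0.79 and those in Acvr2a at r = 0.746, against r = 0.317 for Inhba and 0.313 for Fst. Inha and Acvr2a ran against each other (r = -0.648), and Acvr1b ran with Inhba (r = 0.722) and with Acvr2b (r = 0.611). Without the library that stood apart these were -0.633, 0.66 and 0.677. Acvr1b, Inhba and Acvr2b also each ran against summed FPKM (r = -0.764, -0.507 and -0.41). Without that library the values were -0.46, -0.345 and -0.615. These correlations are descriptions over libraries that share preparation, depth and composition, and the part of the set-apart libraries in the levels of Inha and Acvr2a was not tested.

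The design next asks whether a single cocaine injection changed these genes. Cocaine was compared with saline at 5 times within a genotype by 1 F test in limma over log2(FPKM + 1), with Benjamini-Hochberg adjustment over 14643 genes that reached 1 FPKM in any library, a limit that all 8 passed. In WT mice 0 of the 8 genes passed an adjusted p of 0.05, where 0.0205% of all genes passed (3 genes). Without the set-apart libraries, WT mice keep a single library per treatment at ZT19, so the count from that fit is not read here. In iMSN-D2RKO mice 0 of the 8 passed, where 0% of all genes did (0 genes in limma, with 916 at an unadjusted p under 0.05). Unadjusted, 0 of the 8 were under 0.05 in WT mice, where 435 of the 14643 genes were, and 2 in iMSN-D2RKO mice, Acvr2a and Fst. Without the iMSN-D2RKO library at ZT7 that stood apart, the count of 916 fell to 421 of 14578 genes.

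Inhba after cocaine was on average 0.11 higher on the log2(FPKM + 1) scale in WT mice (95% interval -0.21 to 0.43). In iMSN-D2RKO mice it was 0.28 higher (-0.04 to 0.60). For Fst the mean difference was -0.05 in WT mice (-0.21 to 0.12) and 0.03 in iMSN-D2RKO mice (-0.14 to 0.19). The F test described above is not a test of these means, since it also reads opposite changes at different times. It gave both genes a limma adjusted p of 1 in WT mice. Its limma adjusted p in iMSN-D2RKO mice was 0.815 for Inhba and 0.713 for Fst. In iMSN-D2RKO mice the Fst differences were 0.16 at ZT7, -0.40 at ZT11, 0.35 at ZT15, -0.34 at ZT19 and 0.37 at ZT23. A value that misses the threshold does not show that cocaine left these genes as they were, and the intervals give the range that the data allow.

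Of the receptors, Acvr2a in iMSN-D2RKO mice had the smallest p before adjustment (limma adjusted p = 0.713). At ZT7 it was 2.76, 7.43 and 7.68 FPKM after saline and 11.3, 12.9 and 9.34 FPKM after cocaine, with no overlap. The lowest saline value is again from the library that stood apart, and the highest cocaine value, 12.9 FPKM, is from a set-apart library. At ZT19 it was 13.7, 10.3 and 20.3 FPKM after saline and 9.56, 8.12 and 8.49 FPKM after cocaine, where 2 of the 3 saline libraries were set apart.

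Whether the response to cocaine differed between genotypes was tested as the difference of those differences. In limma 0% of all genes passed (0 genes, with 519 at an unadjusted p under 0.05) and 0 of the 8 genes passed. Acvr2b and Acvr2a had the smallest values before adjustment (limma adjusted p = 0.843 for both), and Inhba (limma adjusted p = 0.854) and Fst (limma adjusted p = 0.843) did not pass either. At ZT19 Acvr2b was 1.96, 2.44 and 2.84 FPKM after saline and 1.70, 0.612 and 1.36 FPKM after cocaine in WT mice, against 1.21, 2.77 and 1.74 FPKM and 3.15, 3.48 and 2.72 FPKM in iMSN-D2RKO mice. The cocaine libraries were thus lower than all saline libraries in WT mice and, but for 1 library, higher in iMSN-D2RKO mice. At ZT15 the differences went the other way, with 0.28 in WT and -0.35 in iMSN-D2RKO mice on the log2(FPKM + 1) scale. The WT value at ZT15 rests on 1 library. Acvr2b there was 3.47, 4.05 and 9.38 FPKM after cocaine and 3.83, 3.98 and 4.46 FPKM after saline. The 9.38 FPKM is from replicate 3, which had the lowest estimated depth of all libraries, 0.346 of the median. Of the groups at ZT19, all but the iMSN-D2RKO cocaine group hold set-apart libraries.

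**Figure D3:**
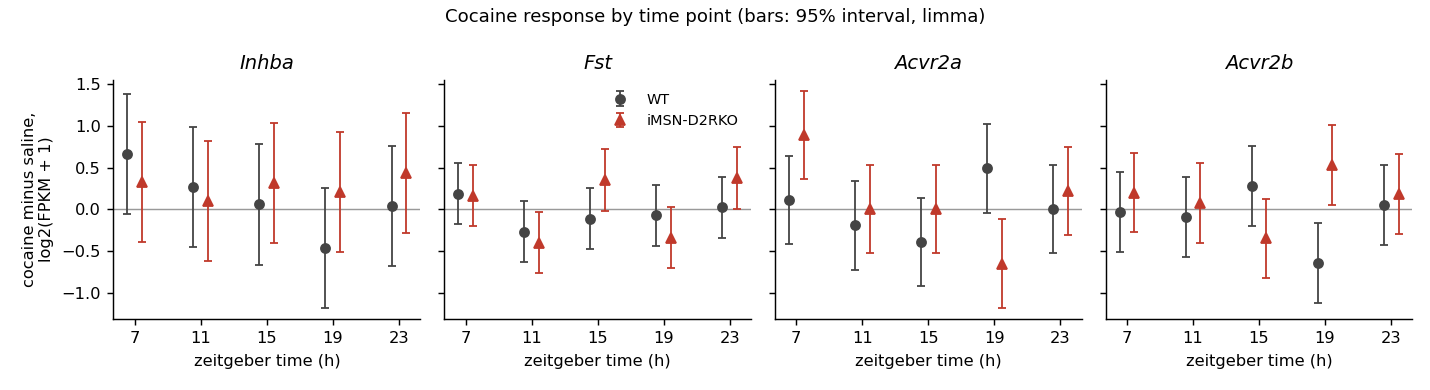
Cocaine minus saline on the log2(FPKM + 1) scale against zeitgeber time in hours for Inhba, Fst, Acvr2a and Acvr2b, in WT (circles) and iMSN-D2RKO mice (triangles). Bars are 95% intervals from limma. The points of Acvr2a and Acvr2b at ZT19 lie on opposite sides of 0 in WT and iMSN-D2RKO mice, and none of these 4 genes passed the adjusted test.

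In the saline series, the genotype difference was compared between each later time and ZT3. In limma 0.0273% of all genes passed (4 genes) and 0 of the 8 did, so the larger Inhba ratios of the later times were not told apart from that at ZT3 (limma adjusted p = 1 for Inhba and for Fst). Without the iMSN-D2RKO library at ZT7 that stood apart, 0 genes passed.

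Rhythms over the day were tested with JTK_CYCLE, which compares the order of the values with cosine curves of 20 and 24 h and gives an exact p, here called at 0.01 with no adjustment over genes. In WT saline mice 1 of the 8 genes was called, where 9.65% of all genes were. In WT cocaine mice (9.04%), iMSN-D2RKO saline mice (2.66%) and iMSN-D2RKO cocaine mice (0.932%) 0 of the 8 were called. A share of 1 in 8 is near the background of the first series. Inhba gave exact p = 0.168 in WT saline mice and 1 in iMSN-D2RKO saline mice, and Fst gave 0.168 and 0.484.

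The gene called was the receptor Acvr2b (JTK_CYCLE exact p = 0.00533, period 24 h, peak at ZT9). In WT saline mice it was 3.48, 3.69 and 3.45 FPKM at ZT3, 3.52, 4.12 and 3.01 FPKM at ZT7, 4.50, 3.76 and 3.52 FPKM at ZT11 and 4.46, 3.83 and 3.98 FPKM at ZT15. It was 1.96, 2.44 and 2.84 FPKM at ZT19 and 1.61, 2.67 and 2.73 FPKM at ZT23. Every library of the first 4 times lay above every library of the last 2. In iMSN-D2RKO saline mice Acvr2b gave exact p = 0.262. With the set-apart libraries removed, which in this series are all at ZT19 and ZT23, Acvr2b no longer passed (exact p = 0.0435), nor did it with replicate 1, 2 or 3 of every group left out (exact p up to 0.208). Its relative Acvr2a came close to the limit in iMSN-D2RKO saline mice (exact p = 0.0106, peak at ZT17), in a series where it was highest in set-apart libraries, and passed with replicate 2 of every group left out (exact p = 0.00025). Inhbb passed in iMSN-D2RKO cocaine mice once the library score was removed (exact p = 0.00371). Whether rhythms differed between genotypes was not tested beyond the limma comparison above.

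**Figure D4:**
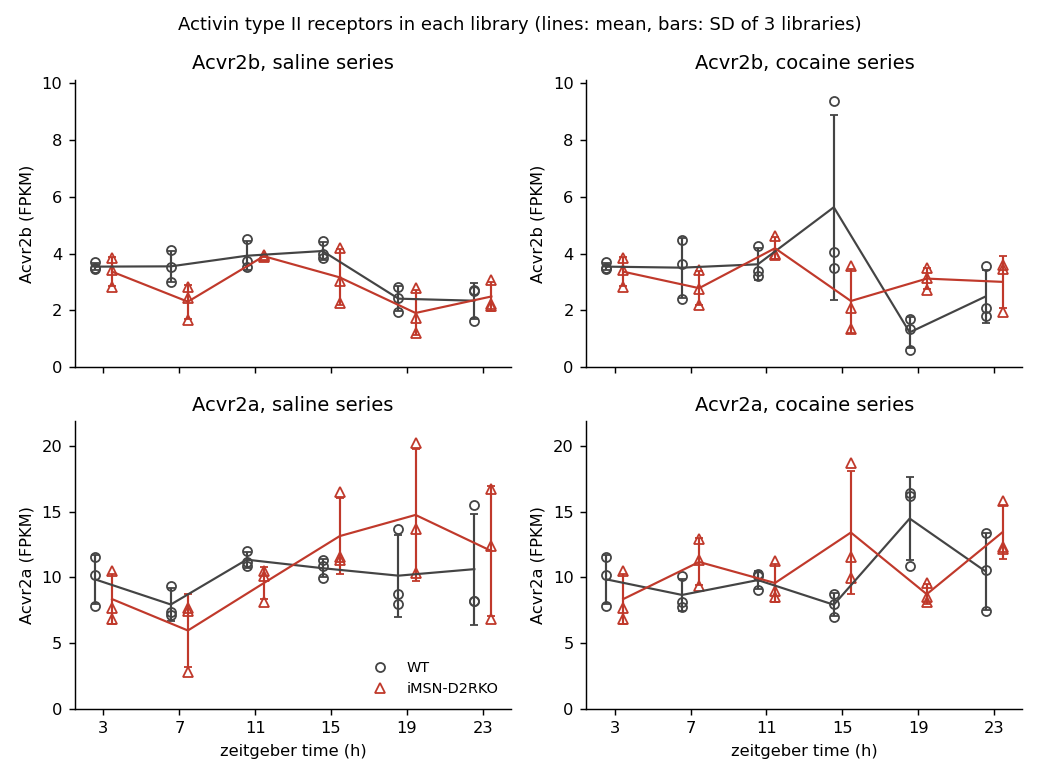
The type II receptors Acvr2b (upper panels) and Acvr2a (lower panels) in FPKM against zeitgeber time in hours for the saline and cocaine series, in WT (circles) and iMSN-D2RKO mice (triangles). Symbols are single libraries, lines join the means and bars are SDs of 3 libraries. Acvr2b in WT saline mice stays between 3.01 and 4.50 FPKM up to ZT15 and between 1.61 and 2.84 FPKM at ZT19 and ZT23.

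Inhba and Fst also varied together within groups, in deviations that the choice of genes did not use. Over the deviations from group means in the 33 iMSN-D2RKO libraries, Pearson's r was 0.662 (permutation p = 0.00058 within groups, two-sided, adjusted p = 0.00116 over 2 tests) and Spearman's rho 0.635 (permutation p = 0.00154, adjusted p = 0.00308). Without the 2 libraries farthest from the median of Inhba, r was 0.581, and without the library that stood apart it was 0.590 (permutation p = 0.00178). With replicate 1, 2 or 3 of every group left out, leaving 22 libraries, r was 0.603, 0.659 and 0.743 (permutation p adjusted over 2 tests = 0.083, 0.219 and 0.0456). In the 33 WT libraries r was 0.494 (permutation p = 0.0452, adjusted p = 0.0452) and rho 0.396 (permutation p = 0.0657, adjusted p = 0.0657), and without the 2 farthest libraries r fell to 0.334.

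Within the libraries not set apart, leaving out groups with 1 such library, r was 0.649 in 25 iMSN-D2RKO libraries (permutation p = 0.0125, adjusted p = 0.025), rho was 0.539 (permutation p adjusted over 2 tests = 0.0607), and r without the 2 farthest libraries was 0.453. In 25 WT libraries r was 0.380 (permutation p = 0.0871). Whether r differed between genotypes was not tested. This co-variation is not particular to the pair: by the same measure over all 66 libraries, Fst was rank 1040 of 12944 genes in likeness to Inhba, and Inhba rank 16 in likeness to Fst (ranks 1094 and 51 without the library that stood apart).

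**Figure D5:**
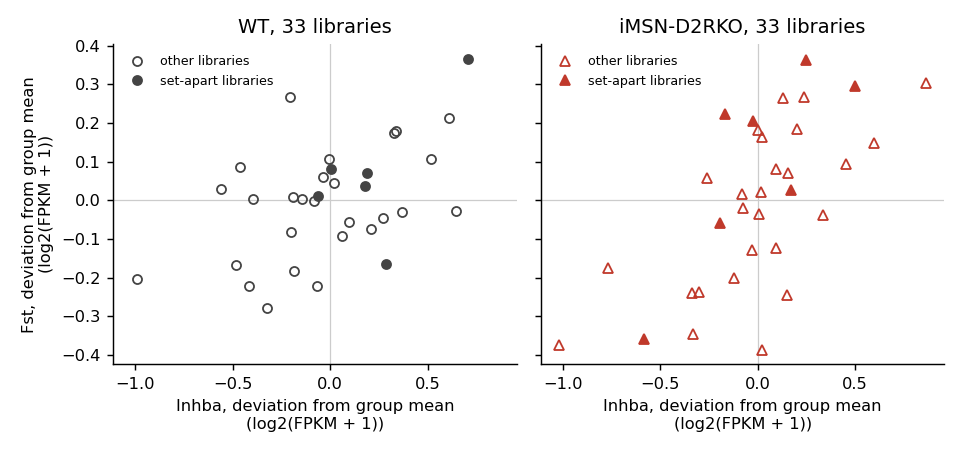
Deviation of Fst from its group mean against that of Inhba, both on the log2(FPKM + 1) scale, in 33 WT libraries (circles) and 33 iMSN-D2RKO libraries (triangles), with set-apart libraries filled. Pearson's r is 0.662 in the iMSN-D2RKO panel and 0.494 in the WT panel.

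The genes most like each were named by Pearson's r over 66 libraries, among 12944 genes with a mean of at least 1 FPKM, as a description. Inhba was most like Fst (r = 0.785), Drd1, the D1 dopamine receptor (0.775), Dhx9 (0.719), Lrrk2 (0.712) and Senp2 (0.704). Fst was most like Inhba (0.785), Pde1c (0.700), Drd1 (0.698), Anxa3 (0.698) and Dclk3 (0.696). Without the library that stood apart, Penk led the list for Fst (0.833) and Inhba was at rank 3 (0.789), while Anxa3 (0.727) and Rimbp2 (0.710) replaced Lrrk2 and Senp2 in the list for Inhba. Since Fst, Inhba, Drd1 and Penk all differ between genotypes, the genotype is shared by these points.

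Within groups, where the genotype is removed, Inhba was most like Pde10a (r = 0.886), Gnal (0.882), Itpr1 (0.880), Ppp2r2c (0.869) and Camk1d (0.865). Pde10a, a phosphodiesterase, and Gnal, the olfactory type G protein subunit, are known for high expression in striatal MSNs. Fst was most like Cdc42ep3 (0.635), Rnf103 (0.628), Man1a (0.625), Dach1 (0.609) and Zik1 (0.608). That list depends on the library that stood apart: without it, Fst was most like Cap1 (0.636), Vrk1 (0.617), St8sia3 (0.593), Cdc42ep3 (0.593) and 5730508B09Rik (0.588). For Inhba, Pgr (0.839) then took the place of Camk1d.

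Markers of cell types in the punches were read beside these values. The 6 iMSN markers summed to a median of 1815 FPKM in WT and 2652 FPKM in iMSN-D2RKO libraries, with Penk the most abundant (mean 1874 FPKM). In the limma genotype comparison over all 11 conditions, Penk passed (log2 difference 0.73, SE 0.09, adjusted p = 4.00e-07), from a median of 1317 FPKM in WT to 2201 FPKM in iMSN-D2RKO mice, and the other 5 iMSN markers did not. Of the 6, 2 had a difference above 0, and their median log2 difference was -0.08, so that the higher sum was carried by Penk. In this comparison 1.05% of all genes were called higher in iMSN-D2RKO mice and 0.505% lower. Of the 6 markers of direct pathway MSNs, 1 was called, Drd1, higher in iMSN-D2RKO mice (log2 difference 0.38, SE 0.06, limma adjusted p = 0.000318), from a median of 84.8 to 114 FPKM. It did not pass with replicate 1 of every group left out (limma adjusted p = 0.141). Of these 6 markers too, 2 had a difference above 0, with a median log2 difference of -0.10 over the list, and the sum had medians of 467 FPKM in WT and 461 FPKM in iMSN-D2RKO libraries.

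Among 6 choroid plexus markers, Clic6 was called higher (log2 difference 0.29, SE 0.06, limma adjusted p = 0.0048), a call lost once the set-apart libraries or replicate 2 or 3 of every group were removed, while Ttr, the most abundant, was at a median of 0.132 FPKM in WT and 0.121 FPKM in iMSN-D2RKO libraries and reached 315 and 1104 FPKM in single libraries. The differences of all 6 were above 0, with a median of 0.23 on the log2 scale against 0.01 over all genes. Their sum ran from 4.67 through a median of 8.96 to 336 FPKM in WT and from 6.43 through 11 to 1146 FPKM in iMSN-D2RKO libraries, and within groups it correlated with Inhba at r = 0.164 and with Fst at r = 0.212. The lists of 6 markers each for striatal neurons, cortical excitatory neurons, striatal interneurons, astrocytes, oligodendrocytes, microglia, endothelial cells and fibroblasts had 0 called genes. Of the oligodendrocyte and of the cortical markers, 0 of 6 had a difference above 0, with median log2 differences of -0.16 and -0.13, and the medians of the other 6 lists lay within 0.05 of 0. Every marker of the 11 lists reached 1 FPKM in at least 1 library, cortical markers included, whose sum ran from 3.51 to 301 FPKM. Within groups, the interneuron sum, in which Sst is the most abundant, correlated with Inhba at r = -0.616, and at r = -0.501 without the library that stood apart. The microglia, astrocyte, fibroblast and endothelial sums correlated with Inhba at r = -0.434, -0.35, -0.343 and -0.315. Without that library these were -0.279, -0.297, -0.292 and -0.238. The iMSN sum correlated with Fst at r = 0.162 and with Inhba at r = -0.0955, and at r = 0.55 and r = 0.297 without that library. The sum of the striatal neuron markers correlated with Inhba at r = 0.199, and at r = 0.481 without it. The part of these cell types in the levels of Inhba and Fst was not tested.

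The remaining genes of the pathway were read in the same limma comparison of genotypes. Of 23 further activin pathway genes, among them SMADs, co-receptors, extracellular binding proteins and processing proteases, 17 were tested and 0 were called (0 higher and 0 lower). Their median log2 difference was 0.02, against 0.01 over all genes. Smad4, the common partner of the receptor SMADs, had medians of 21.1 FPKM in WT and 23.4 FPKM in iMSN-D2RKO libraries (limma adjusted p = 0.883). Magi2, a scaffold that binds activin type II receptors, had medians of 19.4 and 21.2 FPKM (limma adjusted p = 0.942).

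The related branches were read the same way. Of 15 genes of the TGF-β and GDF branch, 12 were tested and 0 called, with a median log2 difference of -0.02. The most abundant were Gdf1, a GDF ligand, with medians of 81.2 FPKM in WT and 71.6 FPKM in iMSN-D2RKO libraries, and Ltbp3, a latent TGF-β binding protein, with 8.62 and 8.71 FPKM. Of 24 BMP branch genes, 23 were tested and 0 called, with a median of -0.02. Id4 and Id2, inhibitors of bHLH factors and BMP targets, had medians of 146 and 60.3 FPKM in WT and of 130 and 63.7 FPKM in iMSN-D2RKO libraries.

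Of 16 SMAD2/3 targets and corepressors, 13 were tested and 1 was called, Pmepa1, higher in iMSN-D2RKO mice. Among all genes, 1.05% were called higher and 0.505% lower. PMEPA1 binds receptor SMADs and limits their signalling, and its gene is a known target of them. Pmepa1 had a median of 24.5 FPKM in WT and 31.4 FPKM in iMSN-D2RKO libraries (log2 difference 0.35, SE 0.07, limma adjusted p = 0.00182), with a higher mean in 10 of 11 conditions and no overlap in 4. Of all genes tested, 3.35% were separated this way in at least 4 conditions. Pmepa1 did not pass with any replicate number left out of all groups (highest limma adjusted p = 0.0922). The median of the list was -0.02, and Ski, a corepressor of SMADs and the most abundant of the list, had medians of 53.1 and 48.1 FPKM (limma adjusted p = 0.63).

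Because Inhba is an activity-induced gene, 30 genes of that kind were read beside it. All 30 were tested and 3 were called, all of them higher in iMSN-D2RKO mice. Over all genes, 1.05% were called higher and 0.505% lower. The median log2 difference of the list was 0.02, against 0.01 over all genes. Nr4a1, an orphan nuclear receptor and early-response gene, had a median of 35.0 FPKM in WT and 52.1 FPKM in iMSN-D2RKO libraries (log2 difference 0.47, SE 0.09, limma adjusted p = 0.00219). Scg2, a precursor of secretory granule peptides, had medians of 196 and 249.9 FPKM (log2 difference 0.34, SE 0.07, limma adjusted p = 0.00531). Ptgs2, the inducible cyclooxygenase, had medians of 0.862 and 1.25 FPKM (log2 difference 0.29, SE 0.06, limma adjusted p = 0.00912). Vgf, a secreted neuropeptide precursor and among the most abundant of the list, had medians of 158 and 148 FPKM (limma adjusted p = 0.96). The other 26, which include Fos, Arc, Egr1 and Npas4, did not pass either. Without the set-apart libraries 5 of the 30 were called, and with 1 replicate of every group left out in turn 0, 0 and 1.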

How the data were processed

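RNA of 66 ventral striatum samples was sequenced as strand-specific mRNA libraries. The authors aligned reads to mm10 and made gene FPKM with Cuffnorm (submitters' notes: CASAVA 1.8.2, Bowtie). The deposited FPKM table has 72 columns, of which 6 repeat others exactly and were dropped. No counts were given, so count models were not used.

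Here log2(FPKM + 1) was fitted in limma 3.58.1 (R 4.3.3) with 22 group means, an empirical Bayes trend and Benjamini-Hochberg adjustment over the 14643 genes that reached 1 FPKM in any library. Fold changes of low genes are understated by the pseudocount. JTK_CYCLE rules (periods 20 and 24 h, p multiplied by 11 curves, Dixon outliers dropped at 95%) were run on genes with at least 1 FPKM in the series. Correlations used 100000 permutations within groups. The code was tested on simulated data. Python 3.11.15, numpy 2.4.6, pandas 2.3.3 and scipy 1.17.1 were used.

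The members, gene lists and tests were chosen with earlier results of these data known. Named are the 8 genes, Drd2 and Drd1, up to 6 called genes and the 2 most abundant of each pathway list, called cell type markers, and the 5 genes most like Inhba and Fst. Alternatives covered pseudocount, filter, scaling, library score, replicate block and left-out libraries. Leaving out the library at ZT7 that stood apart was an alternative chosen after the data were examined.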

Additional observations from a re-analysis of the deposited data

How the results depend on the processing

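The differences of Inhba and Fst between genotypes kept their direction under every alternative run. The log2 difference of Fst was 0.91 with a pseudocount of 0.1, which compresses low values less. The 368 alternative values of the member tests in limma stayed above an adjusted p of 0.05, and their lowest was 0.24. Of the 632 member values of limma and JTK_CYCLE under alternatives, 624 kept their side of the threshold. Of the rest, 4 passed it (rhythms of Acvr2a, Inhbb and Acvr1b) and 4, all of Acvr2b, lost it. Acvr1b passed only where the rhythm limit was loosened from 0.01 to 0.05 (JTK_CYCLE exact p = 0.0476 in WT cocaine mice). For all further changes the cause was not tested.

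Counts over all genes moved more. Without the set-apart libraries, the WT comparison at ZT19 sets a single cocaine library against a single saline library. The cocaine counts of that setting are therefore not read as a response to cocaine. Without the set-apart libraries, 137 genes were called between genotypes (228 with all libraries), 227 for cocaine in WT mice (3), 3 for genotype by cocaine (0), and 702, 302, 108 and 224 as rhythmic in WT saline, WT cocaine, iMSN-D2RKO saline and iMSN-D2RKO cocaine mice (1345, 1290, 376 and 130). With the library score as a covariate, 1338 were called between genotypes, 6 for cocaine in WT mice and 11 for genotype by time, and with the score removed 335 as rhythmic in iMSN-D2RKO cocaine mice. With only the compared groups in the fit, 1 was called for cocaine in WT mice. At p under 0.05, JTK_CYCLE called 3262, 3031, 1590 and 481 in the same order of series, and a limma fit of cosine and sine called 2084 in WT cocaine, 1 in iMSN-D2RKO saline and 0 in iMSN-D2RKO cocaine mice.

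With a replicate number, or the library at ZT7 that stood apart, left out, counts ran from 26 to 245 between genotypes, 0 to 6 for cocaine in WT and 0 to 1 in iMSN-D2RKO mice, 0 to 1 for genotype by cocaine, 0 to 3 for genotype by time, 197 to 825, 268 to 976, 74 to 955 and 44 to 96 for the rhythms. The within-group correlation of Inhba with Fst ran from 0.243 to 0.692 in WT and from 0.590 to 0.743 in iMSN-D2RKO mice, and in WT mice it was 0.479 with a pseudocount of 0.1, 0.461 with median-ratio scaling and 0.380 without the set-apart libraries, where p was above 0.05. It was also above 0.05 after adjustment with any replicate number left out in WT mice, and with number 1 or 2 left out in iMSN-D2RKO mice. Of the named genes, Pmepa1, Nr4a1, Scg2, Ptgs2, Drd1 and Clic6 lost their call with at least 1 replicate number left out, Clic6 also without the set-apart libraries, and Penk kept its call.

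Replicate numbers did not pair the samples (median correlation -0.000138 for the same number and 0.00282 for different numbers). With a replicate block, 2 genes passed genotype by time in place of 4. The number of reads is not known, so the counting error of low genes such as Fstl3 and Inhbb cannot be given.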
